A study of Mus musculus with 6 samples.

Results

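The genes described here are 56 glutathione, thioredoxin and antioxidant genes of the mouse, taken from a fixed list and found on the array by the RefSeq transcript that each probe carries. All 56 had a probe, among 20659 genes that could be named, and together they had 74 of the 39429 different probes. RNA came from MC3T3-E1 cells, an established line of mouse pre-osteoblasts, cultured for 3 days. The De-HA group (n = 3) grew on a scaffold that had been dealloyed and then coated with bioactive material, and the FeMnSi group (n = 3) grew on the scaffold of iron, manganese and silicon left as made. Both groups were thus grown on a scaffold, and no cells without one enter the comparison. The labels do not say whether replicates were separate cultures, so p-values cover only the spread among these 6 samples, and that spread may be technical. The comparison asks which genes of thiol and oxidant metabolism differ between cells on the treated and on the untreated scaffold.

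Glutathione is a small thiol made from glutamate, cysteine and glycine, which glutathione peroxidases use to reduce peroxides and glutathione transferases attach to electrophiles. Thioredoxin and the peroxiredoxins form another peroxide-reducing system, and both systems draw their electrons from NADPH, much of it made by the pentose phosphate pathway. Many of these genes are switched on by the transcription factor NRF2 (gene Nfe2l2), which is held down by KEAP1 until oxidants or electrophiles modify that protein. In cells of the bone lineage these systems handle the peroxide made in respiration and in collagen crosslinking, and free iron can turn peroxide into more reactive radicals.

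Each sample was read on 1 single-colour array. Values are log2 signals relative to the 75th percentile of the array, so that 0 is a signal as bright as that percentile, and they rank arrays for 1 probe but not probes against each other. Between 63.5% (De-HA 1) and 74.4% of the probes of an array were well above background, and 0 spots were saturated. By the file headers FeMnSi 1 has the same scan time as all 3 De-HA arrays, and FeMnSi 2 and 3 share another. Arrays with equal scan times were taken to lie on 1 slide, the first of these being called slide 1. The slide is thus inferred, and no slide label was read. Values within slide 1, the De-HA mean minus FeMnSi 1, are given beside the pooled ones. All 13 osteoblast markers on the array, among them Runx2, Sp7, Alpl and Ibsp, were well above background on every array. Limma with Benjamini-Hochberg adjustment placed 1658 of 15535 tested genes past an adjusted p of 0.05, of which 989 were higher and 669 lower in De-HA, against 685 and 880 after quantile normalization. Over all genes the median fold change was 0.10 on the log2 scale, and quantile normalization moved it to 0.00.

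Of the 56 genes 52 could be tested, and 10 of them fell in De-HA while 1, Sod3, rose. Among all tested genes 10.7% were past the threshold, 4.31% lower and 6.37% higher. The genes that fell were the transferase genes Mgst1, Gsta3, Gsto2, Gsta4, Gstk1, Mgst2 and Gstm4, the quinone reductase gene Nqo1, the glutathione synthetase gene Gss and the peroxidase gene Gpx4. Of these, 4 differed at least 2-fold, which 0.631% of all genes did in that direction. The median log2 fold change of the 52 was -0.08. Below the median of all genes lay 41 of the 52, 43 after quantile normalization and 37 with the slide as a block. Mgst1 passed the filter on dim signals through its FeMnSi arrays alone and so could be tested only if it differed. With the filter set to all 6 arrays, which leaves Mgst1 and Gstk1 out, 10 of 50 were lower (5.38% of all genes were), with Gpx1 and Blvrb in their place. With the slide as a block, where 1.25% of all genes passed, Mgst1 and Gsta3 passed and the other 9 did not. When any 1 of the 6 arrays was left out, Mgst1, Gsta3, Gsto2, Gstk1 and Nqo1 passed each time, while Gss, Gstm4 and Gpx4 passed only without FeMnSi 1, with adjusted p up to 0.126, 0.134 and 0.166. Gsta4 lost its call without De-HA 2 or 3, Mgst2 without De-HA 3 or FeMnSi 3, and Sod3 without De-HA 2 or 3 or FeMnSi 3 (adjusted p up to 0.0615, 0.0630 and 0.0620). With normexp background correction 19 of the 52 were lower, where 6.67% of all genes were. That correction, with an offset of 50, changed the size of the differences. Mgst1, Gsta3, Gsto2 and Gsta4, the 4 that differed at least 2-fold, then gave -0.89, -0.83, -0.68 and -0.68, each under 2-fold. Gstk1 gave -0.26 and Nqo1 -1.09 in that setting.

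**Figure D1:**
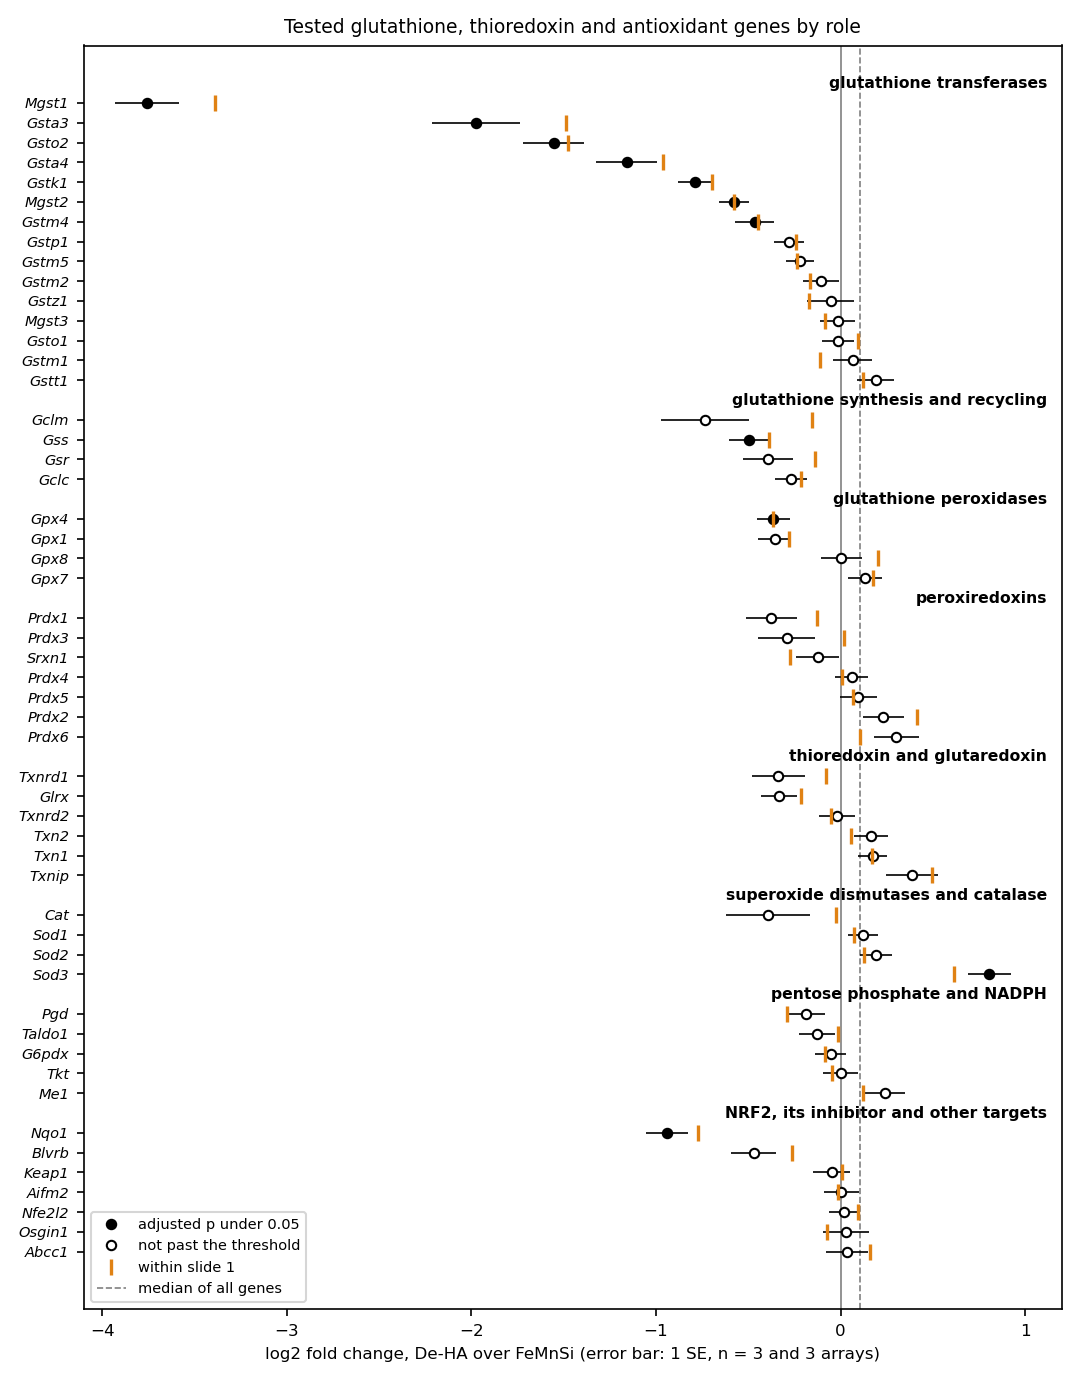
Log2 fold change (De-HA over FeMnSi, 1 SE) of the 52 tested genes, in groups by role, with filled points for an adjusted p under 0.05, orange ticks for the value within slide 1 and a dashed line at the median of all genes, 0.10. Mgst1, farthest to the left, is at background on De-HA, so that its plotted position is no measured fold. Gsta3 follows at -1.97, and the only filled point to the right of 0 is Sod3 at 0.81.

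Glutathione transferases conjugate glutathione to electrophilic compounds. Of the 15 tested transferase genes 7, Mgst1 included, fell in De-HA, where 4.31% of all tested genes did. None rose, and the median log2 fold change of the 15 was -0.28 (-0.24 within slide 1). Mgst1 encodes a microsomal transferase that also reduces lipid peroxides. Its log2 signal was -3.60, -2.90 and -3.20 on FeMnSi 1, 2 and 3, and -6.99, -7.05 and -6.92 on De-HA 1, 2 and 3, where it was not well above background. The groups were far apart (adjusted p = 0.000863 in limma), but Mgst1 passed the filter through its FeMnSi arrays alone and so could be tested only if it differed. Because the De-HA signals are at background the change has only a lower bound. The FeMnSi mean set against the lowest signals well above background on the De-HA arrays was at least 4.47-fold higher. This bound holds for the processed signals, and with normexp background correction the log2 difference of Mgst1 was -0.89. The other Mgst1 probe, likewise too dim on each De-HA array, gave a bound of at least 1.92-fold.

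Gsta3, a transferase of the alpha class, gave -3.01, -2.004 and -2.56 on the FeMnSi arrays and -4.48, -4.59 and -4.43 on the De-HA arrays. The De-HA arrays lay close together, and FeMnSi 1 was the FeMnSi array nearest to them. Gsta3 fell 3.92-fold (log2 difference -1.97 ± 0.24 SE, adjusted p = 0.00832, -1.49 within slide 1). The lowest signal well above background on De-HA 1 was -4.82, so the Gsta3 value there lies near the floor. With normexp background correction Gsta3 gave -0.83. Its other probe gave -2.45 but was well above background on only 2 of the De-HA arrays. Gsta4, the alpha class transferase that clears the lipid peroxidation product hydroxynonenal, gave -2.11, -1.56 and -2.06 on FeMnSi and -2.90, -3.18 and -3.14 on De-HA. It fell 2.23-fold (-1.16 ± 0.17 SE, adjusted p = 0.0122, -0.96 within slide 1), with no overlap of the groups. Gsta2, of the same class, was well above background on 1 FeMnSi array and on no De-HA array and was not tested.

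The omega class holds a pair of genes that stand next to each other on chromosome 19, and they gave different results. Gsto2, which reduces dehydroascorbate, gave -2.77, -2.87 and -2.45 on FeMnSi and -4.54, -4.14 and -4.07 on De-HA, lowest on De-HA 1. It fell 2.93-fold (-1.55 ± 0.17 SE, adjusted p = 0.00653, -1.47 within slide 1). The lowest signal well above background on De-HA 1 was -4.82, so the Gsto2 value there lies near the floor. With normexp background correction Gsto2 gave -0.68. Gsto1, its neighbour, gave 2.44, 2.60 and 2.59 on FeMnSi and 2.51, 2.55 and 2.54 on De-HA, and the groups overlapped (-0.01 ± 0.09 SE, adjusted p = 0.930). Whether both fold changes differ from each other was not tested. Gstk1, the kappa class transferase of mitochondria and peroxisomes, gave -3.85, -3.67 and -3.75 on FeMnSi and -4.62, -4.45 and -4.56 on De-HA. It fell 1.73-fold (-0.79 ± 0.09 SE, adjusted p = 0.00788, -0.70 within slide 1). On 1 of the De-HA arrays its signal was not clear of background.

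Mgst2, a microsomal transferase that can also make leukotriene C, varied little within each group. Its log2 signal was 0.04, 0.07 and 0.02 on FeMnSi and -0.60, -0.48 and -0.52 on De-HA, a drop of 1.49-fold (-0.58 ± 0.08 SE, adjusted p = 0.0116, -0.57 within slide 1). Mgst3, the other microsomal gene, did not pass (-0.02 by its brighter probe). The mu class genes Gstm2, Gstm1 and Gstm4 lie side by side on chromosome 3, with Gstm5 near them, and are near-identical in places, so that a probe may read more than 1 of them. Gstm4 gave -1.90, -1.86 and -1.89 on FeMnSi and -2.18, -2.53 and -2.33 on De-HA. It fell 1.38-fold (-0.47 ± 0.11 SE, adjusted p = 0.0416, -0.45 within slide 1). Its other probe was well above background on 2 De-HA arrays and on no FeMnSi array and was not tested. The signals of that probe, near background, gave 0.51, the opposite direction, and -0.01 within slide 1. Gstm1 gave 0.07 ± 0.11 SE (adjusted p = 0.690), with overlapping groups and -0.07 by its other probe, and -0.26 after quantile normalization.

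The remaining transferases did not pass. Gstm5 (-0.22, adjusted p = 0.109) and Gstp1 (-0.28, adjusted p = 0.0745), the pi class transferase, nevertheless had every De-HA array below every FeMnSi array. Gstp1 gave 2.47, 2.59 and 2.47 on FeMnSi and 2.19, 2.27 and 2.22 on De-HA, and its other probe gave -0.30. Groups that lie apart in this way were common: 39.6% of all tested genes had them, 13.4% with De-HA lower and 26.2% with De-HA higher. Gstm2 gave -0.11 by its brightest probe (adjusted p = 0.452), while its other probes gave -0.43 and -0.29, the first of them past the threshold at the level of probes (adjusted p = 0.0467), where 6.93% of all kept probes passed. Gstt1 (0.19) and Gstz1 (-0.05) also did not pass, and Gstt2 was too dim to be tested.

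**Figure D2:**
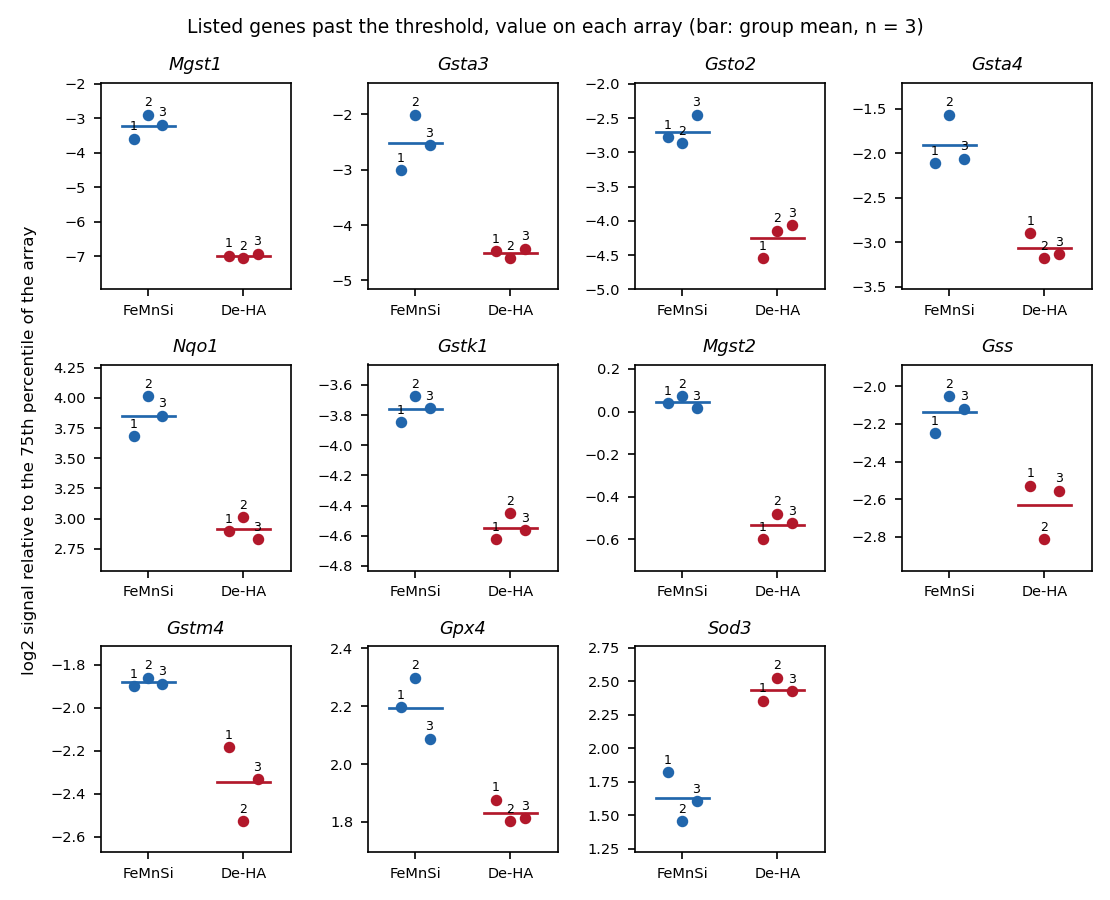
Log2 signal relative to the 75th percentile of the array for the 11 genes past the threshold, 1 point per array with its replicate number and a bar at the group mean (n = 3), each panel on its own scale. In each panel the groups do not overlap, and Sod3 alone is higher in De-HA.

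Of the genes that make and recycle glutathione 4 could be tested. All 4 gave a value below 0, where 36.7% of all tested genes did. Of the 4, 1 passed, where 4.31% of all tested genes were past the threshold and lower. Gss, which encodes glutathione synthetase, the last step of synthesis, gave -2.25, -2.05 and -2.12 on FeMnSi and -2.53, -2.82 and -2.56 on De-HA. It fell 1.41-fold (-0.49 ± 0.11 SE, adjusted p = 0.0393, -0.39 within slide 1), with the groups apart. Gclc and Gclm encode the catalytic and modifier subunits of glutamate-cysteine ligase, the rate-limiting enzyme. Gclc gave 3.93, 4.08 and 3.94 on FeMnSi and 3.76, 3.66 and 3.73 on De-HA (-0.27 ± 0.09 SE, adjusted p = 0.0859), with the groups apart. Gclm differed more and was less even: -0.91, 0.07 and -0.15 on FeMnSi, against -0.997, -1.06 and -1.13 on De-HA. FeMnSi 1 lay close to the De-HA arrays, and Gclm did not pass (-0.73 ± 0.24 SE, adjusted p = 0.0906) and gave -0.16 within slide 1. Without FeMnSi 1 it gave -1.02 (adjusted p = 0.00764).

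Gsr, glutathione reductase, which restores reduced glutathione at the cost of NADPH, also had FeMnSi 1 nearest to De-HA. It gave 3.40, 3.88 and 3.69 on FeMnSi and 3.17, 3.29 and 3.34 on De-HA (-0.39 ± 0.14 SE, adjusted p = 0.101, -0.14 within slide 1), and its other probe gave -0.42. Slc7a11, the cystine importer that feeds glutathione synthesis, was well above background on 1 array of each group and was not tested. The median log2 fold change of the 4 tested genes was -0.44, and -0.19 within slide 1.

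NRF2 acts through a short sequence, the antioxidant response element, whose core can be written TGACNNNGC. The core was searched on both strands in windows of 300 bases, from 250 before to 50 after each RefSeq start (build GRCm38.p6), and such windows were at hand for 49 of the 56 genes. At least 1 window with the core was found for 12 of the 49, or 24.5%, against 14.0% of all 27025 genes with a window. Counted by windows, 19.0% of the 63 windows of the listed genes held the core, against 12.4% of all windows. Of the genes that fell, 9 had a window and 2 held the core, namely Mgst1 and Gsta3, and of the tested genes that did not pass 10 of 37 held it. A match is a description of these letters and not a bound site, and a window without one, such as that of Nqo1, says only that the letters are not in it. A window of Mgst1 (chr6:138140277-138140576, plus strand) and those of Gsta3 (chr1:21240335-21240634, plus strand) and Gclm (chr3:122245307-122245606, plus strand) are shown. Mgst1 and Gsta3 were chosen because their calls held under the slide block, and Gclm because its arrays split within FeMnSi. Mgst1 passed the filter through its FeMnSi arrays alone, so its call under the block adds no support. Capitals mark the core, which runs from base 195 to base 203 in Mgst1 and from base 117 to base 125 in Gclm, on the opposite strand in both, and from base 130 to base 138 in Gsta3, on the strand shown.
Mgst1: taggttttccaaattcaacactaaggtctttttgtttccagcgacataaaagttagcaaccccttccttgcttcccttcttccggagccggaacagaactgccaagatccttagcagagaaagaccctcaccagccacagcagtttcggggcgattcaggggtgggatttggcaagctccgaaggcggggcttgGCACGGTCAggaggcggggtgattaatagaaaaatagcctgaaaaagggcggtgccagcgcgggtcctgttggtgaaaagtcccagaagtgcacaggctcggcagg
Gsta3: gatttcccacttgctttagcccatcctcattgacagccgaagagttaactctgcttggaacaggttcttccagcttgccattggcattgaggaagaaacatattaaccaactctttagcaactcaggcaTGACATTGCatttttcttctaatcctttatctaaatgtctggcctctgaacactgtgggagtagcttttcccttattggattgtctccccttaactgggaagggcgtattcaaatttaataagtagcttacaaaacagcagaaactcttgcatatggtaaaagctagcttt
Gclm: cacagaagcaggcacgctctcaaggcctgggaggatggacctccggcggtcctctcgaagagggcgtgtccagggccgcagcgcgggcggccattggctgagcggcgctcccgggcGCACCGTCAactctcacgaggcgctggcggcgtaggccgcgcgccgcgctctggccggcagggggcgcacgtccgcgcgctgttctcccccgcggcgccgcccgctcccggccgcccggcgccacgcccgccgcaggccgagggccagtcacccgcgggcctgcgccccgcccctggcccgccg

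Glutathione peroxidases reduce hydrogen peroxide and lipid peroxides, and the best known of them carry selenocysteine. Gpx4, the peroxidase that repairs oxidised membrane lipids and holds off ferroptosis, gave 2.20, 2.30 and 2.09 on FeMnSi and 1.88, 1.80 and 1.81 on De-HA. It fell 1.29-fold (-0.36 ± 0.09 SE, adjusted p = 0.0492, -0.37 within slide 1) and was the listed gene nearest to the threshold inside it. Gpx1, the cytosolic peroxidase, was the nearest outside it. It gave 2.22, 2.41 and 2.27 on FeMnSi and 1.98, 1.96 and 1.89 on De-HA (-0.36 ± 0.09 SE, adjusted p = 0.0505, -0.28 within slide 1). With the 75th percentile taken over all spots, those marked as outliers included, Gpx4 also lay outside it, so both stand on either side by a small margin. Gpx7 and Gpx8, which lie in the endoplasmic reticulum and use cysteine, did not pass, and Gpx3, the secreted form, was not well above background on any array.

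Peroxiredoxins reduce peroxide with electrons from thioredoxin, and sulfiredoxin (Srxn1) repairs them when they are overoxidised. None of these 7 genes passed in limma, and at an unadjusted p under 0.05, which 10.7% of all genes had with De-HA lower and 23.0% with De-HA higher, Prdx1 was lower and Prdx6 higher. Prdx1, the abundant cytosolic form, gave 3.87, 4.39 and 4.09 on FeMnSi and 3.76, 3.76 and 3.70 on De-HA. The groups did not overlap, but FeMnSi 1 lay near De-HA (-0.37 ± 0.14 SE, adjusted p = 0.116, -0.13 within slide 1). Its other probe was more even, with 1.43, 1.65 and 1.45 on FeMnSi and 0.91, 0.98 and 0.94 on De-HA. That probe passed at the level of probes (-0.57, adjusted p = 0.0265, -0.49 within slide 1). Prdx3, the mitochondrial form, gave -0.29 and 0.02 within slide 1, where FeMnSi 1 (1.43) lay among the De-HA arrays (1.39 to 1.51). For Prdx6, the form that also acts as a phospholipase, the direction depended on the probe: 0.30 by the brightest and -0.15 and -0.28 by the other kept probes. Prdx2 had its groups apart with De-HA higher (0.23, adjusted p = 0.175), and Prdx4, Prdx5 and Srxn1 lay between -0.12 and 0.10.

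**Figure D3:**
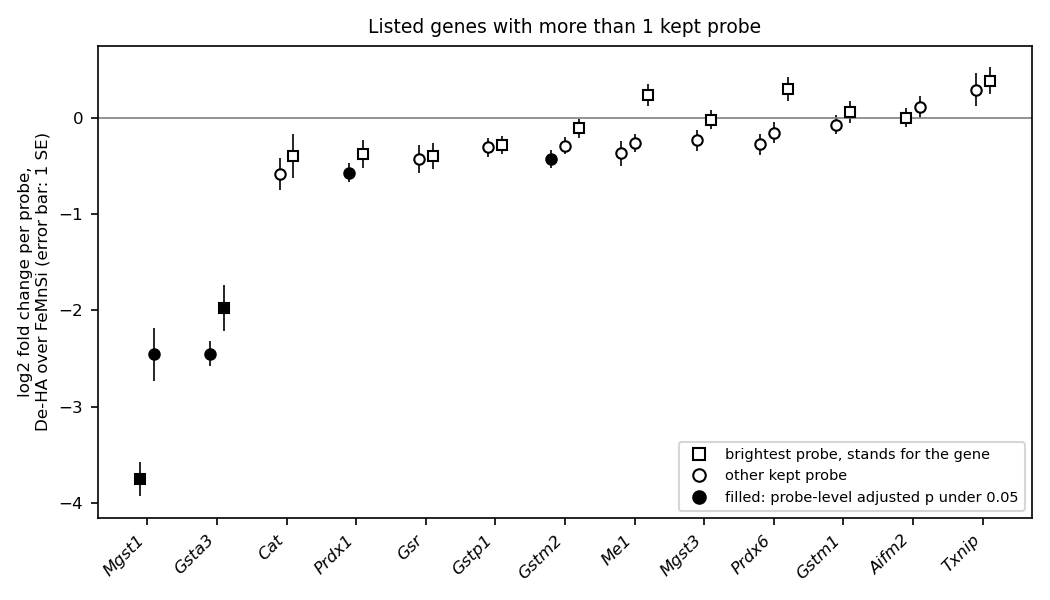
Log2 fold change (De-HA over FeMnSi, 1 SE) of each kept probe of the 13 listed genes with more than 1, with squares for the brightest probe, which stands for the gene, and filled symbols for a probe-level adjusted p under 0.05. The probes of Gsta3 lie at -1.97 and -2.45, the plotted positions of both Mgst1 probes rest on De-HA signals at background (bounds of 4.47-fold and 1.92-fold), and the probes of Gstm1, Me1 and Prdx6 lie on both sides of 0.

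Thioredoxin and glutaredoxin reduce protein disulfides, and none of the 6 genes of this group passed in limma. At an unadjusted p under 0.05 Glrx was lower and Txnip higher. Glrx, the cytosolic glutaredoxin, gave -1.65, -1.41 and -1.52 on FeMnSi and -1.83, -1.94 and -1.81 on De-HA, with the groups apart (-0.34 ± 0.10 SE, adjusted p = 0.0697, -0.21 within slide 1). Txnrd1, the cytosolic thioredoxin reductase and a well known NRF2 target, gave 3.90, 4.36 and 4.21 on FeMnSi and 3.66, 3.93 and 3.87 on De-HA. FeMnSi 1 lay within the De-HA range (-0.34 ± 0.14 SE, adjusted p = 0.149, -0.08 within slide 1). Txnip, which binds and restrains thioredoxin, gave 1.83, 1.78 and 2.21 on FeMnSi and 2.45, 2.20 and 2.33 on De-HA (0.39 ± 0.14 SE, adjusted p = 0.110, 0.50 within slide 1), and FeMnSi 3 lay just above the lowest De-HA array. The thioredoxin genes Txn1 (0.17, adjusted p = 0.175) and Txn2 (0.17, adjusted p = 0.238) had De-HA above FeMnSi on all arrays, but Txn1 gave -0.16 after quantile normalization. Txnrd2, the mitochondrial reductase, gave -0.02.

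Superoxide dismutases turn superoxide into peroxide, and catalase breaks peroxide down. Sod3, the extracellular dismutase, which binds to matrix, gave 1.82, 1.46 and 1.61 on FeMnSi and 2.36, 2.53 and 2.42 on De-HA. It rose 1.75-fold (0.81 ± 0.12 SE, adjusted p = 0.0123, 0.62 within slide 1, 0.74 after quantile normalization) and was the sole listed gene past the threshold in that direction. Sod2, the mitochondrial form (0.19, adjusted p = 0.169), and Sod1, the cytosolic form (0.12, adjusted p = 0.304), did not pass. Both had De-HA above FeMnSi on all arrays, but Sod1 gave -0.21 after quantile normalization. Cat was high on 1 array: 0.56, 1.47 and 0.74 on FeMnSi and 0.59, 0.54 and 0.46 on De-HA (-0.39 ± 0.23 SE, adjusted p = 0.255, -0.03 within slide 1).

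The NADPH-making genes G6pdx, Pgd, Taldo1, Tkt and Me1 did not pass, nor did any reach an unadjusted p under 0.05 in limma. Their log2 fold changes ran from -0.19 to 0.24, with a median of -0.05, and none had its groups apart. Me1, the cytosolic malic enzyme, gave 0.24 by its brightest probe and -0.37 and -0.26 by the others.

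Nfe2l2 and Keap1 themselves did not differ beyond the spread of the arrays. Nfe2l2 gave 3.67, 3.75 and 3.80 on FeMnSi and 3.77, 3.78 and 3.73 on De-HA (0.02 ± 0.08 SE, adjusted p = 0.867, -0.14 after quantile normalization), and Keap1 gave -0.05 ± 0.10 SE (adjusted p = 0.753). NRF2 is regulated chiefly through the stability of the protein, which these arrays do not measure. Nqo1, the quinone reductase gene often used as a readout of NRF2, gave 3.68, 4.02 and 3.85 on FeMnSi and 2.90, 3.01 and 2.83 on De-HA. It fell 1.92-fold (-0.94 ± 0.11 SE, adjusted p = 0.00832, -0.77 within slide 1), and every FeMnSi array stood clear of every De-HA array. Blvrb, biliverdin reductase B, gave 3.51, 3.88 and 3.77 on FeMnSi and 3.15, 3.37 and 3.23 on De-HA. It lay just outside the threshold (-0.47 ± 0.12 SE, adjusted p = 0.0549, -0.26 within slide 1). Osgin1, the exporter gene Abcc1 and the ferroptosis suppressor gene Aifm2 did not pass, and each lay between 0.00 and 0.03.

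The FeMnSi arrays did not agree on several of these genes, and FeMnSi 1, the FeMnSi array that shares a slide with De-HA, was often the lowest. Of the 19 genes with every De-HA array below every FeMnSi array, FeMnSi 1 was the lowest FeMnSi array for 14, against 58.2% of the 2083 genes of that kind among all tested. The median of FeMnSi 1 over the De-HA mean was 0.37 for the 19, and that of FeMnSi 2 and 3 was 0.55. The split was wide for Gclm (0.16 on FeMnSi 1 against 1.02 on FeMnSi 2 and 3), Gsr (0.14 against 0.52), Prdx1 (0.13 against 0.50), Txnrd1 (0.08 against 0.47) and Cat (0.03 against 0.57). It was narrow for Mgst2 (0.57 against 0.58), Gpx4 (0.37 against 0.36), Gstm4 (0.45 against 0.47) and Gsto2 (1.47 against 1.59). Without FeMnSi 1, 18 of the 52 genes were lower and 2 higher, where 9.08% of all genes were lower and 19.7% higher. Gclm, Gsr, Prdx1, Prdx3, Txnrd1, Glrx, Gpx1 and Blvrb were the 8 that then joined the 10. Slide and culture cannot be told apart for this array.

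**Figure D4:**
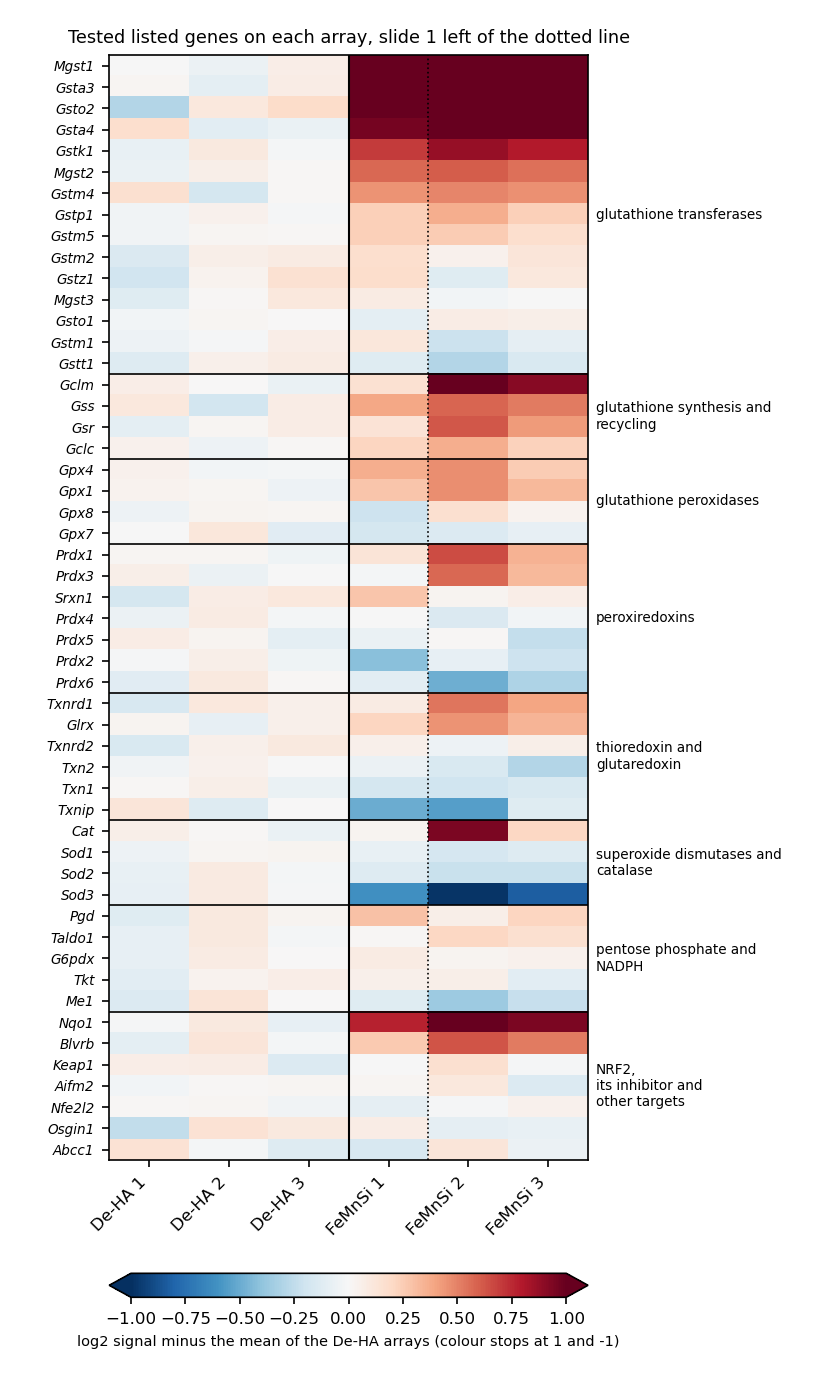
Log2 signal of each of the 52 tested genes on each array, minus the mean of its De-HA arrays, with colour stopping at 1 and -1. The transferase genes that fell are dark on all FeMnSi arrays, while Gclm, Gsr, Prdx1, Txnrd1 and Cat are pale on FeMnSi 1 and darker on FeMnSi 2, with 0.16 against 1.02 for Gclm.

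Further genes of thiol and oxidant metabolism, from lists chosen with earlier results of these data known, give the surroundings. Their counts stand against the 10.7% of all tested genes past the threshold (4.31% lower, 6.37% higher) and the 33.7% at an unadjusted p under 0.05. Of 38 tested other targets and regulators of NRF2, 3 fell and none rose, which is 7.89% and near that share, with a median of 0.07 against 0.10 for all genes. They were Ugt1a6a, a glucuronosyltransferase (-0.45, adjusted p = 0.0223), Hmox1, the haem oxygenase that frees iron from haem (-0.54, adjusted p = 0.0256, -0.36 by its other probe), and Gpd2, mitochondrial glycerol-3-phosphate dehydrogenase (-0.61, adjusted p = 0.0298). Of 16 tested other transferases and peroxidases none passed in limma, with 3 at an unadjusted p under 0.05, a smaller share than among all genes. Ltc4s (0.35, adjusted p = 0.113) and Clic4 (0.22, adjusted p = 0.139) were nearest. Of 21 tested genes of glutathione turnover and thiol supply 9.52% passed. Ggt6, of the gamma-glutamyltransferase family, rose 1.94-fold (adjusted p = 0.0106), and Esd, which hydrolyses S-formylglutathione, fell by 0.38 on the log2 scale (adjusted p = 0.0388, -1.18 by its other probe).

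Of 21 tested genes of the thioredoxin fold and of methionine repair, 2 rose and 1 fell, or 14.3% in all. Msrb1, a selenoprotein that repairs oxidised methionine, rose 1.59-fold (adjusted p = 0.00945), Sesn3, a sestrin, rose by 0.54 (adjusted p = 0.0296), and Txndc12, of the endoplasmic reticulum, fell by 0.40 (adjusted p = 0.0280). Of 20 tested further NADPH genes, 2 rose and 3 fell, or 25.0% in all. Aldh1l1, a cytosolic folate enzyme that makes NADPH, fell 1.97-fold (-0.98 ± 0.08 SE, adjusted p = 0.00256, -1.06 within slide 1), and a block for the slide kept its call (adjusted p = 0.0204). The mitochondrial folate genes Aldh1l2 and Mthfd1l fell by 0.42 and 0.62 (adjusted p = 0.0359 and 0.0369), and Mthfd2l rose by 0.79 (adjusted p = 0.0204). Nadk2, the mitochondrial NAD kinase gene, named after its values were seen, rose by 0.35 (adjusted p = 0.0435). None of 20 tested selenoprotein and selenium supply genes passed in limma, with 3 at an unadjusted p under 0.05, again a smaller share than among all genes. Selenon (0.46, adjusted p = 0.0700) and Secisbp2 (0.40, adjusted p = 0.0725) were nearest. Of 18 tested genes of ferroptosis and lipid peroxidation 16.7% passed: the iron exporter gene Slc40a1 fell 1.92-fold (adjusted p = 0.0121), while Acsl3 (0.70, adjusted p = 0.0159) and Sat1 (0.54, adjusted p = 0.0379) rose. Of 21 tested sources of superoxide and peroxide 9.52% passed: the amine oxidase gene Aoc3 rose (1.68, adjusted p = 0.00143) and the lysyl oxidase gene Loxl1 fell (-0.57, adjusted p = 0.0160, -0.16 by its other probe). Apart from Aldh1l1, Aoc3 and Loxl1, none of the genes named here from these lists passed with the slide as a block.

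Markers of other cell types were read on the same arrays. Summed over its 8 genes, the linear signal of the adipocyte list ran from 0.330 to 0.363 times the 75th percentile on De-HA and from 0.411 to 0.441 on FeMnSi. Of the 6 that could be tested 1, Fabp4, fell (-1.99, adjusted p = 0.00167), and the other 5 did not pass and gave values above 0, among them Lpl (0.94, adjusted p = 0.136), Cd36 (0.54, adjusted p = 0.217), Cebpa (0.37) and Plin1 (0.29), with a median of 0.33 over the 6. Adipoq and Cidec, which define adipocytes, were at background on all arrays. Of the 8 genes 3 were clear of background on every array. The myeloid sum over 11 genes ran from 4.96 to 5.52 on De-HA and from 3.88 to 5.02 on FeMnSi, with 8 of the 11 well above background on all arrays, Trem2 lower (-1.70, adjusted p = 0.000947) and Adgre1 higher (0.78, adjusted p = 0.0158), and Tyrobp was not well above background on any array. Endothelial genes summed to between 0.895 and 1.00 on De-HA and between 0.697 and 0.728 on FeMnSi, over 8 genes. Chondrocyte genes, also 8, summed to between 24.5 and 26.7 on De-HA. On FeMnSi 1 they gave 25.0, within that range, and on FeMnSi 2 and 3 16.4 and 15.9. Of 3 tested endothelial genes 2, Kdr (0.41) and Esam (0.60), rose, and of 5 tested chondrocyte genes 1, Col2a1 (1.11). None of either list fell. Of the endothelial genes Emcn, Tek, Cdh5 and Tie1, and of the chondrocyte genes Matn1, were at background throughout. The sum of 6 hepatocyte genes, a cell type rich in transferases, ran from 0.135 to 0.161 on De-HA and from 0.118 to 0.149 on FeMnSi, with Apoa1 and Ahsg not well above background on any array. The osteoblast sum over 13 genes was higher on De-HA, with 336 to 387 against 279 to 318 on FeMnSi. Of these 13 genes 5 rose, where 6.37% of all tested genes did, and 1 fell, where 4.31% did. The gene that fell was Spp1 (-1.08, adjusted p = 0.00469 in limma). The part of these lists in the falls of the transferases was not tested. In such bulk RNA fewer cells with a transcript and less of it per cell cannot be told apart.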

How the data were processed

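Total RNA of 6 samples was linearly amplified with a Cy3 label, and each sample took 1 array. Per the submitters' processing notes, scans were quantified in Agilent Feature Extraction 11.0.1.1. Per the file headers the deposited intensity values are background-subtracted and detrended within the array with no scaling from array to array. In the authors' series matrix the values are log2, with the same quantiles in every column, and it was used only as an alternative; its columns have a median of 5.78, correlate at 0.997 to 1.00 with the log2 scanner signals and are not centred by gene, and the step that made it is not given in the sources used here.

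After outlier and control spots had been removed, each array's 75th percentile was subtracted from its log2 processed signals, and replicate spots were averaged. A probe was kept if 3 or more arrays had it well above background (28175 probes), named through RefSeq accessions of GRCm38.p6 (27234 of 39429 probes), and the brightest probe on average stood for a gene. A separate fit over all kept probes gave the probe-level values; 68 of the 74 probes of the listed genes were kept. Groups were compared with limma 3.58.1 in R 4.3.3 (lmFit, eBayes), with Benjamini-Hochberg adjustment over all 15535 genes and a threshold of 0.05. The precision is limited by 3 arrays a group. The fit was tested on simulated data with independent noise on each array and no slide difference, so that test does not cover the slide. Figures used matplotlib 3.10.9.

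The listed genes, the further lists and the tests were chosen with earlier results of these data known. All genes past the threshold were named, as were the gene nearest to it outside and genes whose probes differ in sign or call; 19 further listed genes were named after their values were seen. In each further list up to 4 genes with the smallest p among those past the threshold were named, and where none passed the 2 with the smallest p. Replicate numbers were not taken to pair the samples. Same-numbered arrays correlated at 0.01, -0.11 and 0.12 in their deviations from the group means, and differently numbered ones from -0.25 to 0.23. With 3 arrays a group these values cannot decide whether the samples are paired. Alternatives covered scaling, background, the filter, probes, outlier spots, slide, replicate block and each array left out. The normexp alternative used median spot signals with the median background; mean spot signals were not used here. A bound ("at least N-fold") sets the mean of the bright group against the dim group's mean of, per array, the lowest signal well above background or the probe's own signal where that is higher. With the slide as a block the estimate is the De-HA mean minus FeMnSi 1.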

Additional observations from a re-analysis of the deposited data

How the results depend on the processing

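Each comparison was repeated under 19 alternatives, 1 of them (the 75th percentile over all spots) chosen after seeing the data. Over the 11 genes past the threshold, 159 of the repeated values stayed past it and 48 did not, and none changed direction; Mgst1 and Gstk1 gave no value with the filter on all 6 arrays. The genes past the threshold among all tested numbered 519 without a filter on dim probes, 194 with the slide as a block, 57 with the arrays of slide 1 alone, and 648 with the replicate number as a block, and from 240 to 4476 with 1 array left out (4476 without FeMnSi 1). Of the listed genes 19 were lower with normexp background correction, 2 with the slide as a block and 2 with slide 1 alone, against 5 to 18 with 1 array left out (18 without FeMnSi 1). Listed genes higher in De-HA numbered 0 with the slide as a block, 0 with slide 1 alone, and from 0 to 2 with 1 array left out. With the replicate block, 7 listed genes were lower and 1 higher, although the numbers were not taken to pair the samples. The lone FeMnSi array of slide 1 was assumed to vary like the De-HA arrays. The causes of these differences were not tested.

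Direction changed for genes that were not past the threshold. Among genes the text describes singly, it did so for Gstm1 (-0.26), Nfe2l2 (-0.14), Sod1 (-0.21) and Txn1 (-0.16) with quantile normalization. With the series matrix the same genes gave -0.27, -0.15, -0.21 and -0.16, and with normexp -0.24, -0.10, -0.28 and -0.22, where Gstm1 was past the threshold (adjusted p = 0.0340). With median scaling Gstm1 gave -0.023 and Nfe2l2 -0.067. With the mean of the probes Gstm1 gave -0.0025, Me1 -0.13 and Prdx6 -0.041. With the slide as a block, and equally with slide 1 alone, Gstm1 gave -0.11, Gsto1 0.095, Keap1 0.0069 and Prdx3 0.020. With 1 array left out Gstm1 ran from -0.011 to 0.15, Gsto1 from -0.066 to 0.018, Keap1 from -0.084 to 0.019 and Nfe2l2 from -0.015 to 0.052. A further 10 listed genes (Abcc1, Aifm2, Gpx7, Gpx8, Gstz1, Mgst3, Osgin1, Prdx4, Tkt and Txnrd2) changed direction in 51 instances, 6 of them with quantile normalization, with none past the threshold either way. Signals at background on De-HA limit Mgst1 to a bound, and 3 arrays a group limit the precision of every value.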
